A study of Mus musculus with 7 samples.

Results

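DNA repair and Fanconi pathway genes were followed in 7 mouse Group 3 medulloblastomas (G3 MB) as a set of 47 genes listed by their function. They fall into 9 roles: DNA damage signalling, the Mre11-Rad50-Nbn (MRN) complex, homologous recombination, RecQ helicases, the Fanconi pathway, mismatch repair, nucleotide excision repair, end joining and repair of single-strand breaks. The count table listed 34591 mouse genes, of which 17388 passed the filter on low counts, and all 47 repair genes were among them. The study asked how enforced expression of human WDR11, a gene of the WD repeat family, altered gene expression in G3 MB, and compared 4 tumors labelled WDR11OE with 3 controls. The tumors came from 1 tumorsphere line, number 19568, which grew from a tumor raised in CD1 nu/nu mice. Its founding cells were cerebellar granule neuron progenitors that carried a murine stem cell virus (MSCV) retrovirus for Myc-IRES-GFP. For the G3 MBs of the study the methods name Trp53-/-; Cdkn2c-/- mice as the source of the progenitors, a genotype that the labels do not give. For the WDR11OE group the spheres were infected with a pCDH lentivirus that drives human WDR11 and copGFP from the EF1 promoter, and for the control group, whose treatment the labels give as none, the methods describe the vector without WDR11. By the methods only part of the cells took up the lentivirus. Infected cells were grown in the cortex of CD1-nu/nu hosts, so both groups share the line's genotype, the Myc virus and an immunodeficient host, and RNA was taken from chunks of tumor once the mice were moribund. All 7 tumors therefore descend from 1 line, and p-values measure the spread between these tumors.

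The libraries held 32115996 to 87141248 counts over mouse genes, with the 2 deepest in the WDR11OE group. Values below are CPM, counts scaled to a library of 1000000 after scaling the library sizes by the trimmed mean of M-values (TMM). The table also held a row for human WDR11, which gave 2.03, 2.19 and 3.13 CPM in the controls and 4.38, 2.11, 3.05 and 0.624 CPM in WDR11OE replicates 1 to 4. The groups overlapped on that row and replicate 4 (57 reads; exact Poisson 95% interval 0.473 to 0.809 CPM, counting error only) lay below every control, so the human WDR11 reads did not separate the labelled groups, and each direction given here rests on the label. Mouse Wdr11 was not called (log2 fold change 0.16 ± 0.06 SE, edgeR adjusted p = 0.0910). Both genes of the stated knockout kept reads in all 7 tumors: Trp53 had 45.0 to 53.9 CPM in the controls and 27.8 to 35.6 CPM under the WDR11OE label (log2 fold change -0.56, edgeR adjusted p = 0.00762), and Cdkn2c had 15.2 to 26.8 CPM over all tumors (0.42, edgeR adjusted p = 0.162). Counts over whole genes do not show whether part of either gene was deleted. The viral transgene cannot be told from the mouse gene in Myc, which had 812 to 1109 CPM in the controls and 278 to 431 CPM under the WDR11OE label (log2 fold change -1.40, edgeR adjusted p = 0.00228). Of 8 granule lineage markers, Atoh1 was at 0 in all 7 tumors and Barhl1 in 6 of them, while 5 passed the filter. The 8 markers summed to 46.6 to 53.7 CPM in the controls and 42.6 to 94.4 CPM under the WDR11OE label. The library numbers of the 2 groups belong to separate series, so series and group cannot be told apart.

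Cells meet DNA damage with sensor kinases that halt the cell cycle and with repair routes matched to the lesion. Breaks across both strands are repaired by homologous recombination, which copies an intact sister chromatid, or by end joining. Crosslinks between the strands are handled by the Fanconi pathway, in which a core complex of Fanc proteins attaches ubiquitin to the pair Fancd2 and Fanci. Mismatch repair corrects replication errors, nucleotide excision repair removes bulky adducts, and Parp1 with Xrcc1 and Lig3 acts on breaks of a single strand. In the developing cerebellum, granule neuron progenitors divide rapidly and depend on recombination and on the Atr kinase to survive replication.

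More of the repair genes were called higher than lower in the tumors labelled WDR11OE, each by less than 2-fold. Of the 47 genes, 20 were called higher and 3 lower by edgeR's quasi-likelihood test (Benjamini-Hochberg adjusted p under 0.05 over all tested genes), and 24 were not called. The 20 called higher were Atm, Atr, Chek2, Rad50, Nbn, Brca1, Palb2, Rad52, Rad54l, Wrn, Fancb, Fancd2, Fanci, Fancl, Brip1, Msh3, Pms2, Xpc, Xpa and Xrcc4, with folds from 1.25 for Rad50 to 1.98 for Fancb. The 3 called lower were H2afx, Trp53bp1 and Ercc3, with folds of 0.550, 0.825 and 0.813. These are 42.6% of the set higher and 6.38% lower, against 18.1% and 15.8% of all tested genes. The sign of the log2 fold change was positive for 35 genes and negative for 12, and the median was 0.27 against 0.08 over all tested genes. No repair gene passed a 2-fold limit with an average log2 CPM above 0, which 2.38% of all tested genes did upwards and 3.43% downwards; Fancb passed it without control replicate 3 or WDR11OE replicate 4, and H2afx did so downwards without control replicate 1 or WDR11OE replicate 2. In 24 genes every tumor labelled WDR11OE lay above every control, and in 6 every one lay below, where 23.6% and 19.1% of all tested genes did so. Leaving out WDR11OE replicate 1 left 9 genes called higher and none lower, leaving out WDR11OE replicate 2 left 10 and 1, and leaving out control replicate 2 left 13 and none. No gene was called lower without control replicate 3 either, and 1 was called lower without WDR11OE replicate 3. The 6 genes called under all 17 alternatives were Brca1, Fancb, Fancd2, Fancl, Pms2 and Xrcc4. In bulk tissue, fewer cells of a type and less RNA per cell cannot be told apart.

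**Figure D1:**
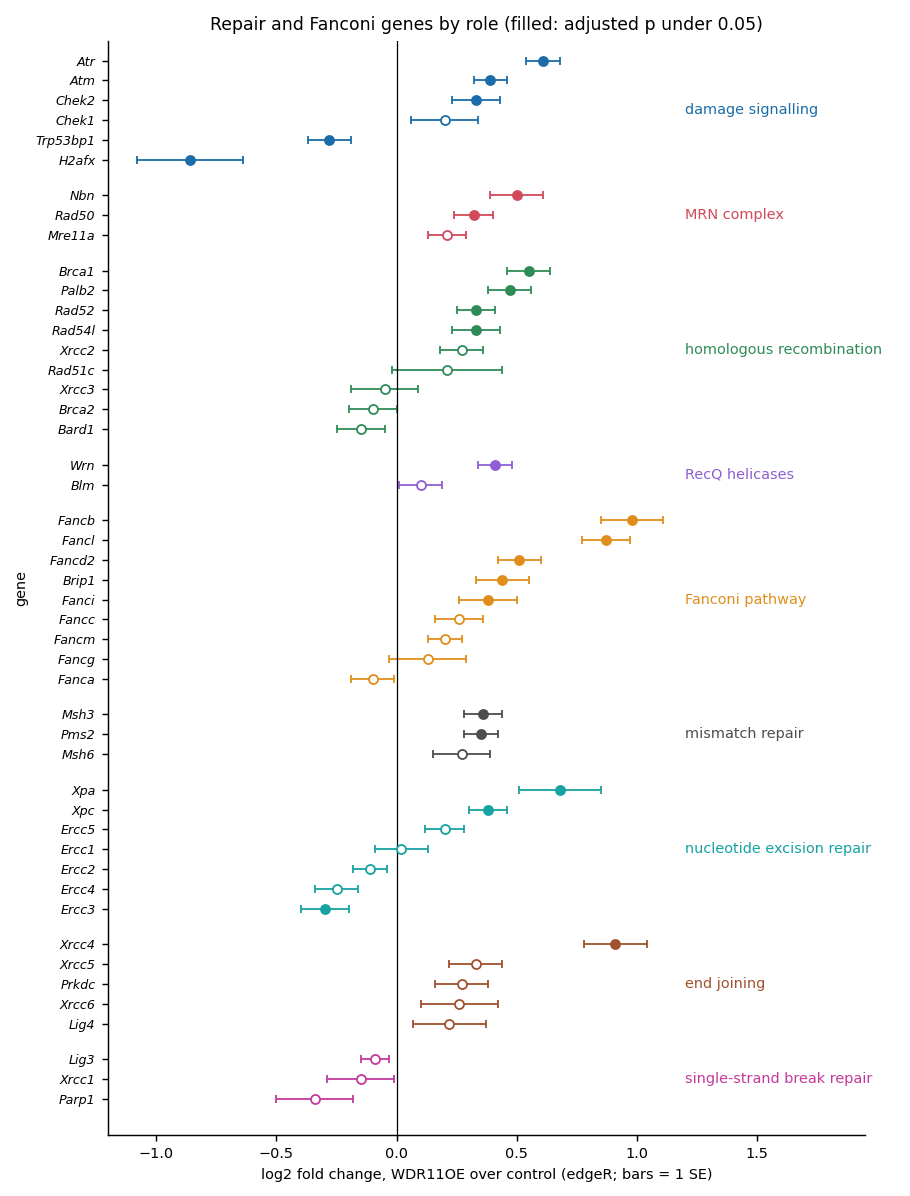
Log2 fold change (x axis, WDR11OE over control, from edgeR) of each of the 47 genes (y axis), coloured and grouped by role; bars are 1 SE and filled points have an adjusted p under 0.05. Fancb, Xrcc4 and Fancl lie furthest to the right at 0.98, 0.91 and 0.87, H2afx lies furthest to the left at -0.86, and all 3 single-strand break repair genes lie left of 0.

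The trend of the fold change with the GC content of a gene's exons bears on these counts. Across 17125 tested genes with an annotation, genes poorer in GC tended to higher fold changes (Spearman's rho of log2 fold change with GC -0.34; the points share the same 7 libraries), and across the 47 repair genes rho was -0.57. The trend went opposite ways in the groups, since the rho of each tumor's deviation from the mean with GC was 0.22 to 0.33 in the controls and -0.31 to -0.16 in the WDR11OE tumors. With a GC trend fitted and removed in each tumor, 9 repair genes stayed called higher: Brca1, Palb2, Fancb, Fancd2, Fancl, Pms2, Xpc, Xpa and Xrcc4. On that scale 2 were called lower, Trp53bp1 and Brca2, and the median was 0.18, beside 11.2% of all tested genes higher and 14.3% lower. With trends on GC and exon length both removed, 14 were higher and 1 lower (Ercc3), with a median of 0.23, against 10.2% and 11.7% of all tested genes. The 14 included Atr, Msh3 and Rad54l, and also Ercc2, Fancc and Prkdc, which were not called at first. Values with the GC trend removed are therefore given beside each gene called higher or lower below, and whether the trend is technical was not tested.

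Of the 6 damage signalling genes, the kinases Atr, Atm and Chek2 were called higher, the chromatin proteins H2afx and Trp53bp1 were called lower, and the checkpoint kinase Chek1 was not called. With the GC trend removed only Trp53bp1 of the 6 was called, and their median log2 fold change went from 0.27 to 0.02. With GC and length trends both removed only Atr was called (0.46, edgeR adjusted p = 0.0218), and the median was 0.03. Atr, the kinase that responds to single-stranded DNA at stalled forks, had 82.9, 81.3 and 83.4 CPM in the controls and 126, 131, 133 and 115 CPM in the tumors labelled WDR11OE. The controls were nearly equal and lay far below the lowest WDR11OE tumor. The log2 fold change was 0.61 ± 0.07 (SE; edgeR adjusted p = 0.00125), and 0.27 with the GC trend removed (edgeR adjusted p = 0.0605). Atm, the kinase activated by breaks, had 172, 164 and 176 CPM in the controls and 226, 226, 237 and 204 CPM in the WDR11OE tumors. Again the groups did not overlap, at a log2 fold change of 0.39 ± 0.07 (edgeR adjusted p = 0.00683), which was 0.11 with the GC trend removed (edgeR adjusted p = 0.430). Chek2, a kinase downstream of Atm, went from 18.3 to 22.5 CPM in the controls to 24.0 to 26.8 CPM (log2 fold change 0.33 ± 0.10, edgeR adjusted p = 0.0353; 0.20 with the GC trend removed, edgeR adjusted p = 0.214).

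H2afx encodes the histone variant that is phosphorylated around breaks, and its exons have the highest GC content of the 47 genes, 62.6%. It had 119.8, 162 and 205 CPM in the controls and 87.0, 110.1, 94.4 and 65.5 CPM in the WDR11OE tumors. Both groups were spread widely, yet every WDR11OE tumor was below every control (log2 fold change -0.86 ± 0.22 SE, edgeR adjusted p = 0.0210). With the GC trend removed the value was -0.47 (edgeR adjusted p = 0.144). Trp53bp1, which binds chromatin at breaks and favours end joining, had 139.6, 151 and 136 CPM in the controls against 113, 105, 120.0 and 131 CPM. The groups did not overlap, at -0.28 ± 0.09 (edgeR adjusted p = 0.0497) and at -0.41 with the GC trend removed (edgeR adjusted p = 0.0104), but at -0.00 with GC and length trends removed (edgeR adjusted p = 0.981). Another gene covers 15.0% of the exon bases of Trp53bp1.

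The MRN complex holds broken ends together and activates Atm. Nbn, its regulatory subunit, had 28.0, 35.4 and 36.2 CPM in the controls and 48.0, 50.8, 43.7 and 45.8 CPM in the WDR11OE tumors. The lowest control stood apart from the other two, and the groups did not overlap (log2 fold change 0.50 ± 0.11 SE, edgeR adjusted p = 0.0108). Rad50, the ATPase of the complex, had 59.7, 57.3 and 64.9 CPM in the controls and 82.5, 72.7, 76.6 and 72.0 CPM in the WDR11OE tumors (log2 fold change 0.32 ± 0.08, edgeR adjusted p = 0.0156). For Mre11a, the nuclease, the groups did not overlap either (48.6 to 59.0 against 60.8 to 66.5 CPM), but it was not called (log2 fold change 0.21, edgeR adjusted p = 0.0808). With the GC trend removed none of the 3 was called, at 0.29 for Nbn, 0.14 for Rad50 and 0.08 for Mre11a (edgeR adjusted p = 0.122, 0.272 and 0.554).

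Among 9 homologous recombination genes, 4 were called higher and none lower, with a median log2 fold change of 0.27. Brca1, a ubiquitin ligase that promotes end resection, had 61.1, 67.0 and 73.4 CPM in the controls and 108, 97.9, 97.4 and 90.8 CPM in the WDR11OE tumors. The highest control was well under the lowest WDR11OE tumor. The log2 fold change was 0.55 ± 0.09 (SE; edgeR adjusted p = 0.00373), and it was 0.43 with the GC trend removed (edgeR adjusted p = 0.0206). Palb2, the bridge between Brca1 and Brca2, had 13.4, 13.9 and 14.2 CPM in the controls and 19.9, 18.5, 19.3 and 19.0 CPM in the WDR11OE tumors. Both groups were tight and apart (log2 fold change 0.47 ± 0.09, edgeR adjusted p = 0.00603; 0.31 with the GC trend removed, edgeR adjusted p = 0.0458). Rad52, which anneals single strands, had 17.8, 17.4 and 17.4 CPM in the controls and 22.9, 21.1, 21.3 and 22.8 CPM in the WDR11OE tumors (log2 fold change 0.33 ± 0.08, edgeR adjusted p = 0.0185; 0.25 with the GC trend removed, edgeR adjusted p = 0.0567). The DNA translocase Rad54l had the same log2 fold change of 0.33 (29.8 to 38.2 against 40.8 to 45.2 CPM, edgeR adjusted p = 0.0363). Rad54l was at 0.21 with the GC trend removed (edgeR adjusted p = 0.180) and at 0.45 with GC and length trends removed (edgeR adjusted p = 0.0435).

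The other 5 genes of this role were not called. Brca2, the loader of the recombinase, had 68.1, 63.8 and 75.8 CPM in the controls and 66.2, 57.8, 72.7 and 61.7 CPM in the WDR11OE tumors, so the groups overlapped (log2 fold change -0.10 ± 0.10 SE, edgeR adjusted p = 0.480). Its exons are poor in GC (42.4%), and with the GC trend removed the value was -0.40 and was called (edgeR adjusted p = 0.0260). With GC and length trends removed Brca2 was at -0.11 and not called (edgeR adjusted p = 0.557). With the length trend alone removed it was at 0.07 (edgeR adjusted p = 0.731). Bard1, the obligate partner of Brca1, had 29.0 to 30.3 CPM in the controls and 22.9 to 29.5 CPM in the WDR11OE tumors (log2 fold change -0.15 ± 0.10, edgeR adjusted p = 0.288). The 3 paralogs of the recombinase in the set, Xrcc2, Rad51c and Xrcc3, had log2 fold changes of 0.27, 0.21 and -0.05, none of them called (edgeR adjusted p = 0.0594, 0.533 and 0.818). Of the RecQ helicases, which unwind recombination and replication intermediates, Wrn had 30.6, 32.2 and 32.7 CPM in the controls and 44.3, 40.7, 43.4 and 40.6 CPM in the WDR11OE tumors. Wrn was called higher with no overlap (log2 fold change 0.41 ± 0.07 SE, edgeR adjusted p = 0.00400), at 0.10 with the GC trend removed (edgeR adjusted p = 0.396). Blm had 54.1, 53.2 and 65.0 CPM against 60.6, 57.4, 65.4 and 62.3 CPM, overlapping groups and a log2 fold change of 0.10 ± 0.09 (edgeR adjusted p = 0.460).

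The Fanconi pathway held the highest fold of the set, that of Fancb. Of its 9 genes, 5 were called higher (Fancb, Fancl, Fancd2, Brip1 and Fanci) and none lower, and the median log2 fold change was 0.38. This median was above that of mismatch repair (0.35), but not without WDR11OE replicate 1 (0.30 against 0.32) control replicate 1 (0.32 against 0.36) or control replicate 3 (0.38 for both), with the length trend removed (0.47 against 0.48) or with WDR11OE replicates 1 and 2 summed (0.31 against 0.32). Fancb, an X-linked subunit of the core complex, had 9.09, 8.42 and 9.90 CPM in the controls and 16.7, 17.3, 21.0 and 17.3 CPM in the WDR11OE tumors. Replicate 3 was the highest, the other 3 tumors were nearly equal, and all were above the controls. The log2 fold change was 0.98 ± 0.13 (SE; 1.98-fold, edgeR adjusted p = 0.00178), and 0.64 with the GC trend removed (edgeR adjusted p = 0.0130). Fancl, the ubiquitin ligase of the core complex, had 9.37, 10.2 and 10.3 CPM in the controls and 17.1, 17.5, 19.0 and 19.1 CPM in the WDR11OE tumors. Both groups were narrow, and they did not overlap. Its log2 fold change was 0.87 ± 0.10 (1.83-fold, edgeR adjusted p = 0.00137), or 0.45 with the GC trend removed (edgeR adjusted p = 0.0238). Fancl has the lowest exon GC content of the 47 genes, 39.6%, and another gene covers 13.7% of its exon bases.

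Fancd2, the substrate of the core complex, had 39.7, 40.5 and 48.3 CPM in the controls and 65.1, 58.7, 62.7 and 58.0 CPM in the WDR11OE tumors. The highest control was well below the lowest WDR11OE tumor (log2 fold change 0.51 ± 0.09 SE, edgeR adjusted p = 0.00515; 0.33 with the GC trend removed, edgeR adjusted p = 0.0434). Fanci, which is ubiquitinated with Fancd2, had 22.1, 26.0 and 24.1 CPM against 34.2, 32.0, 33.3 and 25.7 CPM. It was the only one of the 20 genes called higher whose groups overlapped, because replicate 4 fell within the controls (log2 fold change 0.38 ± 0.12, edgeR adjusted p = 0.0455; 0.27 with the GC trend removed, edgeR adjusted p = 0.184). Brip1, the helicase bound to Brca1, had 18.3 to 22.4 CPM in the controls and 24.7 to 30.1 CPM in the WDR11OE tumors (log2 fold change 0.44 ± 0.11, edgeR adjusted p = 0.0183; 0.10 with the GC trend removed, edgeR adjusted p = 0.622). The 4 genes not called were the core subunits Fanca, Fancc and Fancg and the translocase Fancm, at -0.10, 0.26, 0.13 and 0.20 (edgeR adjusted p = 0.421, 0.0974, 0.596 and 0.0757). Subunits of the same core complex thus ranged from -0.10 for Fanca to 0.98 for Fancb; no test compared one subunit with another.

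**Figure D2:**
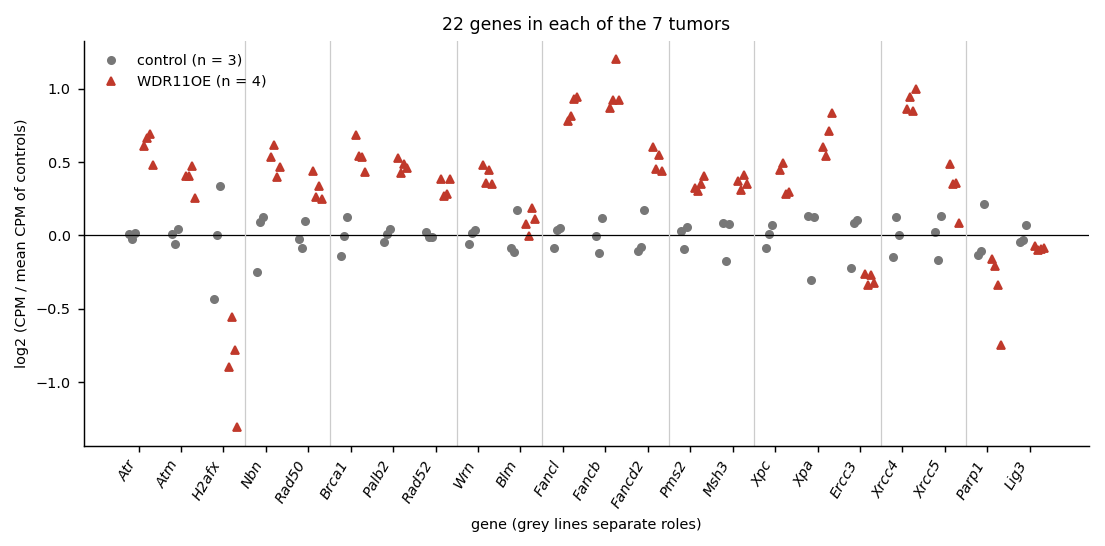
Each point is 1 tumor: log2 of its CPM over the mean CPM of the controls (y axis) for 22 genes (x axis), with grey circles for the 3 controls and red triangles for the 4 tumors labelled WDR11OE, in replicate order from left to right. For Fancl, Fancb and Xrcc4 the red points stand clear of the grey, while for Blm they are intermingled and for H2afx, Ercc3 and Parp1 they lie below.

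The 3 mismatch repair genes had log2 fold changes between 0.27 and 0.36. Pms2, an endonuclease subunit, had 30.6, 28.2 and 31.2 CPM in the controls and 37.6, 37.1, 38.3 and 39.8 CPM in the WDR11OE tumors. The 2 groups were narrow and separate (log2 fold change 0.35 ± 0.07 SE, edgeR adjusted p = 0.00785; 0.23 with the GC trend removed, edgeR adjusted p = 0.0425). Msh3, which recognises insertion and deletion loops, had 45.0, 37.7 and 44.9 CPM in the controls and 54.9, 52.6, 56.5 and 54.2 CPM in the WDR11OE tumors. No control reached the WDR11OE range (log2 fold change 0.36 ± 0.08, edgeR adjusted p = 0.0131). Msh3 was at 0.19 with the GC trend removed (edgeR adjusted p = 0.128) and at 0.38 with GC and length trends removed (edgeR adjusted p = 0.0217). Msh6, which recognises base mismatches, overlapped between groups (99.7 to 135 against 124 to 153 CPM; log2 fold change 0.27 ± 0.12, edgeR adjusted p = 0.135).

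Nucleotide excision repair moved both ways, with a median log2 fold change of 0.02 over 7 genes. The damage recognition proteins Xpc and Xpa were called higher. Xpc had 26.7, 28.5 and 29.8 CPM in the controls and 38.6, 39.9, 34.5 and 34.8 CPM in the WDR11OE tumors. Xpa was scarce, with 6.67, 4.91 and 6.62 CPM in the controls and 9.21, 8.83, 9.92 and 10.8 CPM in the WDR11OE tumors. Neither gene overlapped between groups, and the log2 fold changes were 0.38 ± 0.08 for Xpc and 0.68 ± 0.17 for Xpa (SE; edgeR adjusted p = 0.0117 and 0.0181). Both stayed called with the GC trend removed, at 0.45 for Xpc and 0.62 for Xpa (edgeR adjusted p = 0.0109 and 0.0266), but with GC and length trends removed Xpa, at 0.44, was not (edgeR adjusted p = 0.0930). Their exons are richer in GC than those of most of the 47 genes, 52.0% and 48.6%. Ercc3, the helicase of the TFIIH complex, had 27.5, 34.0 and 34.5 CPM in the controls and 26.7, 25.3, 26.5 and 25.6 CPM in the WDR11OE tumors. The lowest control was just above the highest WDR11OE tumor (log2 fold change -0.30 ± 0.10, edgeR adjusted p = 0.0485; -0.26 with the GC trend removed, edgeR adjusted p = 0.0895). The nuclease Ercc4 did not overlap either, with controls from 19.0 CPM upwards against 15.6 to 16.9 CPM, and was not called (log2 fold change -0.25 ± 0.09, edgeR adjusted p = 0.0602). Its partner Ercc1, the helicase Ercc2 and the nuclease Ercc5 were not called, at 0.02, -0.11 and 0.20 (edgeR adjusted p = 0.898, 0.274 and 0.0851), and another gene covers 42.7% of the exon bases of Ercc2.

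All 5 end joining genes had positive log2 fold changes, from 0.22 to 0.91, but only Xrcc4 was called. Xrcc4, the scaffold of the ligase, had 4.84, 5.84 and 5.36 CPM in the controls and 9.71, 10.3, 9.61 and 10.7 CPM in the WDR11OE tumors. The lowest WDR11OE tumor was far above the highest control, and the log2 fold change was 0.91 ± 0.13 (SE; 1.88-fold, edgeR adjusted p = 0.00264), or 0.57 with the GC trend removed (edgeR adjusted p = 0.0241). Lig4, the ligase that Xrcc4 stabilises, had 11.4 to 14.0 CPM in the controls and 11.6 to 15.8 CPM in the WDR11OE tumors (log2 fold change 0.22 ± 0.15, edgeR adjusted p = 0.306). Xrcc5, one of the Ku proteins that cap ends, had 62.7, 55.0 and 67.8 CPM against 86.8, 78.9, 79.0 and 65.7 CPM. Replicate 4 fell among the controls, and the gene was not called (log2 fold change 0.33 ± 0.11, edgeR adjusted p = 0.0621). The other Ku protein, Xrcc6, gave 0.26 ± 0.16 (edgeR adjusted p = 0.255), and Prkdc, the kinase that Ku recruits, gave 0.27 ± 0.11 with groups that did not overlap (67.1 to 86.5 against 88.2 to 104 CPM, edgeR adjusted p = 0.0935).

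The single-strand break genes were the only role in which every member had a negative sign, and none was called. Parp1, which senses nicks, had 334, 341 and 426 CPM in the controls and 328, 318, 291 and 219 CPM in the WDR11OE tumors. The groups touched without overlapping, from 328 in replicate 1 to 334 in control replicate 1 (log2 fold change -0.34 ± 0.16 SE, edgeR adjusted p = 0.143). Lig3, the ligase, had 84.4, 84.9 and 91.5 CPM against 82.6, 81.0, 81.7 and 81.9 CPM, a small gap with very narrow WDR11OE values (log2 fold change -0.09 ± 0.06, edgeR adjusted p = 0.272). Xrcc1, the scaffold, overlapped at 57.8 to 80.4 against 56.8 to 71.1 CPM (log2 fold change -0.15 ± 0.14, edgeR adjusted p = 0.456). With trends on GC and length removed the signs of Lig3 and Xrcc1 turned positive, at 0.12 and 0.11.

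Single genes were also compared by a two-sided exact permutation test of the mean log2 CPM over the 35 ways of splitting 7 tumors into 4 and 3. Of the 20 genes called higher, 19 reached 0.0286, the smallest p that these splits allow, and Fanci gave an exact permutation p of 0.0857. The 20 were picked by edgeR on the same tumors, so the permutation adds no further evidence for them. Of all tested genes, 23.6% lay wholly above the controls and 19.1% wholly below. H2afx and Ercc3 also reached an exact permutation p of 0.0286, and Trp53bp1 gave 0.0571. Mre11a, Xrcc2, Prkdc, Ercc4 and Lig3 reached an exact permutation p of 0.0286 as well, though edgeR did not call them. Among the genes not called by edgeR, 5 lay wholly above the controls (Mre11a, Xrcc2, Fancm, Ercc5 and Prkdc) and 3 wholly below (Ercc4, Parp1 and Lig3). Of the 24 genes not called, 8 had an unadjusted edgeR p under 0.05, namely Mre11a, Xrcc2, Fancc, Fancm, Ercc4, Ercc5, Prkdc and Xrcc5. The matching share among all tested genes was not counted, so these 8 do not set the repair genes apart.

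Per exon length the repair genes spanned a wide range of RNA levels. In RPKM (CPM per kilobase of exon), the control means ran from 1.25 ± 0.366 (SD, n = 3) for Rad51c to 119.6 ± 31.2 for H2afx, and 13 genes reached 10 RPKM. Parp1 came next to H2afx at 95.4 ± 13.3 RPKM, followed by Xrcc1 at 33.3 ± 5.64, Msh6 at 27.4 ± 4.16 and Xrcc5 at 24.2 ± 2.53. The SDs are spreads between tumors. They do not test the order of genes measured in the same tumors, and no test compared the levels of genes with each other. The genes with the highest folds were among the least abundant: Xrcc4 had 1.27 ± 0.119 RPKM in the controls, Fancl 2.95 ± 0.149 and Fancb 3.06 ± 0.249. In the WDR11OE tumors these became 2.39 ± 0.121, 5.40 ± 0.297 and 6.06 ± 0.664 RPKM (SD, n = 4). All were still well below H2afx at 65.8 ± 13.6 and Parp1 at 75.1 ± 12.9. The means of H2afx and Parp1 thus stood in the reverse of their order in the controls, and their difference was not tested.

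**Figure D3:**
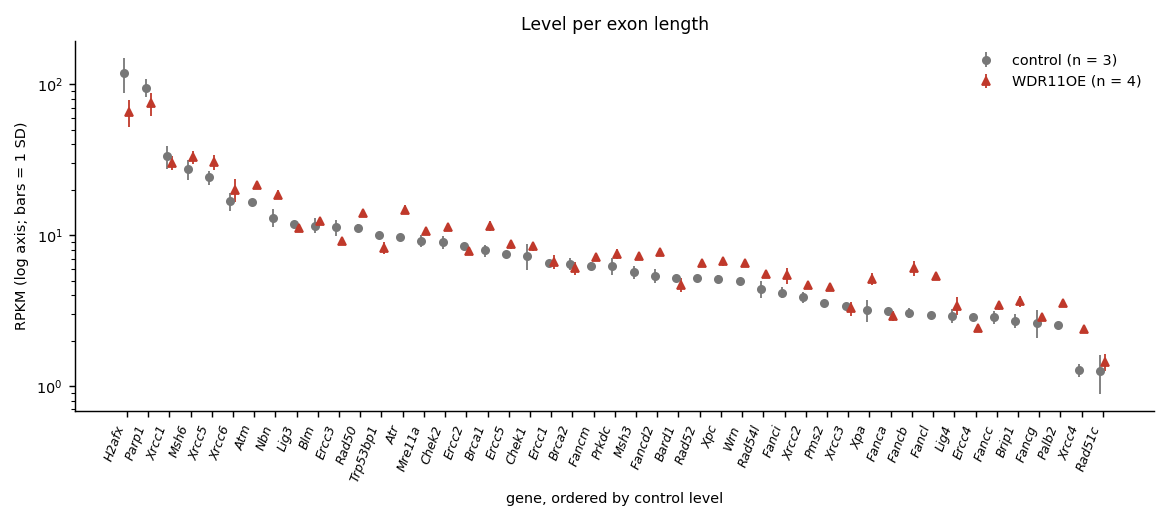
Mean RPKM (y axis, log scale; bars are 1 SD) of each gene in the 3 controls (grey circles) and the 4 tumors labelled WDR11OE (red triangles), ordered along the x axis by control level. H2afx and Parp1 lie at the top near 100 RPKM with Rad51c and Xrcc4 at the bottom, and the red points of Fancb, Fancl, Xpa and Xrcc4 stand above the grey at the low end.

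The tumors of the WDR11OE group were not alike in these genes. The median deviation of the 47 genes from the mean of the controls was -0.05, -0.02 and 0.08 in the controls and 0.34, 0.27, 0.28 and 0.18 in WDR11OE replicates 1 to 4 (log2). Over all tested genes it was -0.00, -0.01 and 0.01 in the controls and 0.01, -0.01, 0.07 and 0.18 in WDR11OE replicates 1 to 4. In replicate 4 the repair genes thus stood at the median of all tested genes. Of the 47 genes, 25 were highest in replicate 1 among the 4 WDR11OE tumors, and 21 were lowest in replicate 4. For the Fanconi genes the medians were 0.51, 0.41, 0.42 and 0.30 in the WDR11OE tumors against -0.09, -0.04 and 0.08 in the controls. For the single-strand break genes they were -0.07, -0.10, -0.21 and -0.32 against -0.13, -0.03 and 0.18, which overlap. Many repair genes are transcribed in S phase, so 22 S phase and 20 G2 and mitosis genes were measured beside them. Medians of the S phase genes were 0.27, 0.26, 0.10 and -0.09 in the WDR11OE tumors and -0.16, -0.06 and 0.23 in the controls. Those of the G2 and mitosis genes were 0.40, 0.36, 0.21 and 0.05 against -0.18, -0.09 and 0.27. Replicate 1 and control replicate 3 thus held the highest value of their group for the repair genes and for both cell cycle sets. By these medians both cell cycle sets overlapped between groups and the repair genes did not. The summed CPM of the 47 repair genes did overlap, at 2298 to 2657 in the controls and 2419.9 to 2771 in the WDR11OE tumors.

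By the test, 10 S phase genes were called higher and 2 lower (median log2 fold change 0.06). Of the G2 and mitosis genes, 8 were called higher and 2 lower (median 0.22). The share called higher was thus 45.5% of the S phase genes and 40.0% of the G2 and mitosis genes. It was 42.6% of the repair genes and 18.1% of all tested genes. This share therefore did not set the repair genes apart from the cell cycle genes. Without WDR11OE replicate 1, 3 S phase and 3 G2 and mitosis genes were called higher, and without replicate 2 there were 3 and 4. Without either control replicate 1 or control replicate 2 there were 4 and 5, and without WDR11OE replicate 3 there were 5 S phase genes. The proliferation marker Mki67 was not called (log2 fold change -0.30 ± 0.12 SE, edgeR adjusted p = 0.0949). Control replicate 3 had the highest S phase and Fanconi medians of the controls (0.23 and 0.08). In the WDR11OE group, replicate 1 had the highest of both (0.27 and 0.51) and replicate 4 the lowest (-0.09 and 0.30). The part of the cell cycle in the fold changes of the repair genes was not tested.

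**Figure D4:**
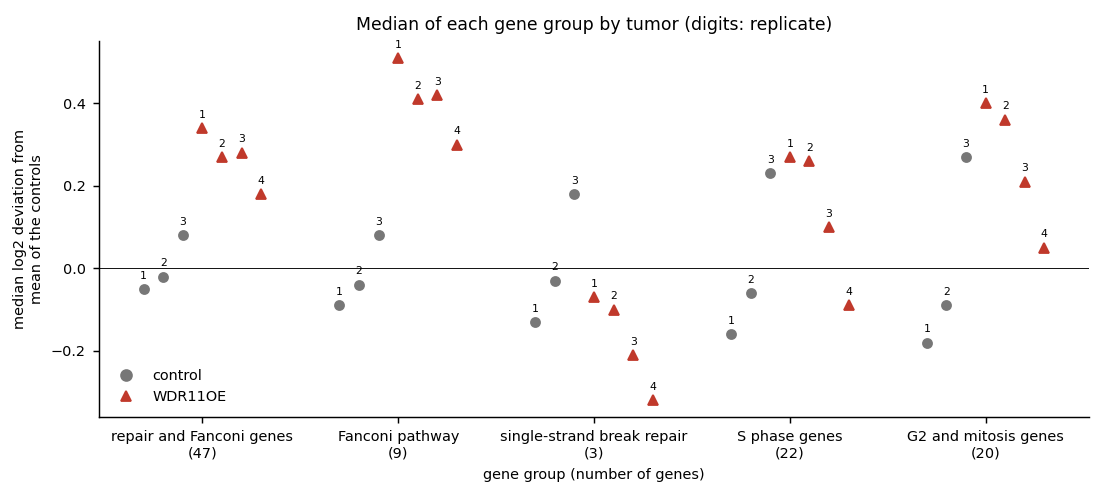
Median log2 deviation from the mean of the controls (y axis) over the genes of each group (x axis), 1 point per tumor, with grey circles for controls, red triangles for tumors labelled WDR11OE and digits for the replicate. The red points of the repair genes (0.18 to 0.34) and of the Fanconi genes (0.30 to 0.51) lie above the grey, whereas those of S phase genes (-0.09 to 0.27) and G2 and mitosis genes (0.05 to 0.40) overlap the controls. Medians of all tested genes, which are not drawn, ran from -0.01 to 0.18 in the WDR11OE tumors, with 0.18 in replicate 4.

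Markers of other cells varied beside these values. All 8 skeletal muscle markers were called higher, with sums of 1.44 to 2.17 CPM in the controls and 40.5 to 127 CPM in the WDR11OE tumors, and Mb, the muscle oxygen carrier myoglobin, was at 0 in the 3 controls. Of 8 endothelial markers 3 were called lower (sums of 130.4 to 169 against 98.9 to 113 CPM). None of 12 neuron, 8 oligodendrocyte or 10 microglia markers was called, and 1 of 8 astrocyte markers was called higher. Neuron marker sums ran from 84.9 to 521 CPM in the controls. They were 14.8, 33.6, 235 and 749.6 CPM in WDR11OE replicates 1 to 4, where the median deviations of the repair genes were 0.34, 0.27, 0.28 and 0.18. The part of these cells in the repair gene values was not tested.

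The GC content of the exons ordered the fold changes of the repair genes, here in 3 ranges of GC. The 16 genes lowest in GC (39.6% to 44.9%, among them Fancl, Fancb, Xrcc4, Atr, Wrn and Atm) had 9 called higher, none lower and a median log2 fold change of 0.36. All tested genes in that GC range had 34.6% called higher, 4.89% lower and a median of 0.33. The 15 in the middle (45.1% to 47.8%, among them Fancd2, Palb2, Brca1, Pms2 and Rad52) had 9 called higher, 1 lower and a median of 0.33, where all tested genes of that range had 21.2% higher, 10.8% lower and a median of 0.18. The 16 highest in GC (48.6% to 62.6%, among them Xpa, Xpc, Parp1 and H2afx) had 2 called higher, 2 lower and a median of -0.07, beside 9.23% higher, 21.8% lower and a median of -0.08 for all tested genes of that range. With the trend removed, medians were 0.10, 0.20 and 0.18 in the 3 ranges, against 0.04, 0.06 and 0.04 over all tested genes.

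**Figure D5:**
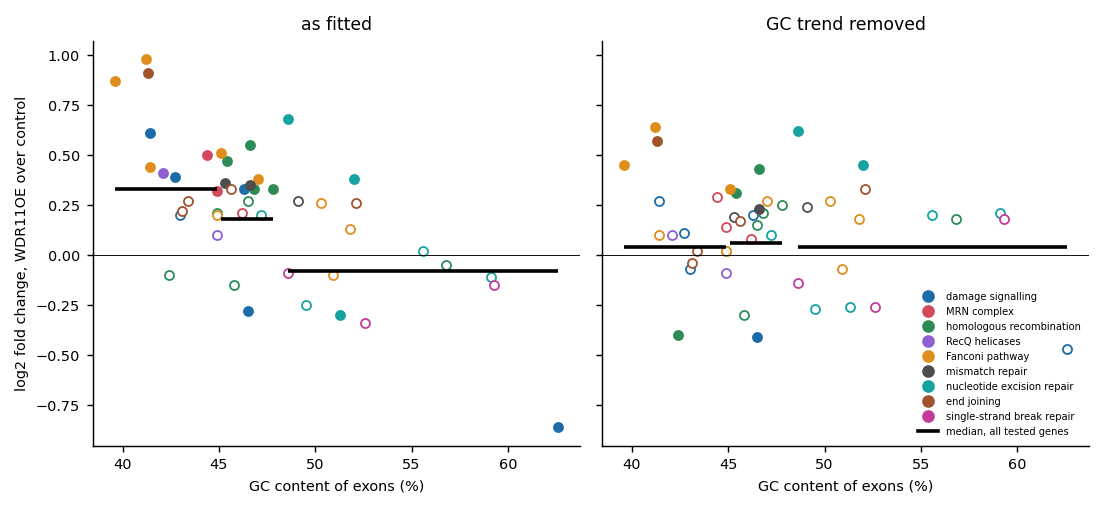
Log2 fold change (y axis, WDR11OE over control) against exon GC content (x axis, percent) for the 47 genes coloured by role, as fitted (left) and with a GC trend removed in each tumor (right); filled points have an adjusted p under 0.05 and black lines are medians of all tested genes in the 3 GC ranges. On the left the points fall with GC (rho -0.57) and follow the black lines at 0.33, 0.18 and -0.08; on the right the slope is gone (rho -0.07) and 9 genes remain filled above 0.

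A further 102 repair genes outside the set were listed by role, of which 101 passed the filter. Of these, 31 were called higher and 6 lower, with a median log2 fold change of 0.17; without WDR11OE replicate 1 or replicate 2, 19 were called higher. By role, the genes called higher were 7 of 18 of damage signalling, 6 of 20 of homologous recombination, 1 of 10 of the Fanconi pathway and 3 of 4 of mismatch repair. They were 6 of 13 of nucleotide excision repair, 5 of 20 of base excision and single-strand break repair, 3 of 10 of damage tolerance and none of 6 of end joining, where 18.1% of all tested genes were called higher. Slx4, the scaffold for nucleases that unhook crosslinks, had 45.2, 49.9 and 44.8 CPM in the controls and 27.3, 29.5, 30.5 and 31.9 CPM in the WDR11OE tumors. It was the 1 Fanconi gene called lower in that list (log2 fold change -0.65 ± 0.08 SE, edgeR adjusted p = 0.00151; -0.55 with the GC trend removed, edgeR adjusted p = 0.00377). Mdc1, the adaptor that binds phosphorylated H2afx, fell from 100.2, 135 and 125 CPM to 66.1, 66.6, 77.9 and 61.1 CPM (log2 fold change -0.82 ± 0.12, edgeR adjusted p = 0.00283). With the GC trend removed its value was -0.78 (edgeR adjusted p = 0.00560). The glycosylase Tdg fell by 0.42 on the log2 scale (-0.42 ± 0.09, edgeR adjusted p = 0.0108), and stood at -0.54 with the GC trend removed (edgeR adjusted p = 0.00974). Polb, the gap-filling polymerase, rose from 15.3 to 17.2 CPM in the controls to 27.3 to 30.3 CPM (log2 fold change 0.86 ± 0.09, edgeR adjusted p = 0.00106). With the GC trend removed Polb was at 0.74 (edgeR adjusted p = 0.00270). Rad17, which loads the checkpoint clamp that activates Atr, rose by 0.68 ± 0.07 (edgeR adjusted p = 0.00107), or 0.43 with the GC trend removed (edgeR adjusted p = 0.0101). Hltf, a translocase at stalled forks, rose by 0.76 ± 0.08 (edgeR adjusted p = 0.00108). It was at 0.32 and not called with the GC trend removed (edgeR adjusted p = 0.0730).

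Promoters were examined because E2F factors drive many repair genes at the start of S phase. RefSeq promoters of the GRCm38.p6 assembly, 250 bases before to 50 bases after the start of transcription, matched 38 of the 47 genes (41 promoters), with no entry for H2afx, Rad50, Nbn, Xrcc2, Wrn, Fancd2, Xpc, Ercc3 or Prkdc. An E2F word (TTTCCCGC, TTTGGCGC or TTTCGCGC on either strand) occurred in 9 of the 41 promoters, or 22%, against 1.84% of 32851 promoters. The 32851 promoters were not matched to the 41 in base composition, and its part in these shares was not tested. Overlapping promoters of a gene, as in Rad54l, were counted separately. The 8 genes that hold it are shown with 60 bases around the word, on the gene's strand and with the word in capitals, because they show how far the word and the fold change go together. Msh3 carries 2 overlapping words, given in capitals on separate lines.
Chek2: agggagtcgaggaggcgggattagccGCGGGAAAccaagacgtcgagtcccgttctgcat
Msh3, first word: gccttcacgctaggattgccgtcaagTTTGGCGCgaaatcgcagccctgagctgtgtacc
Msh3, overlapping word: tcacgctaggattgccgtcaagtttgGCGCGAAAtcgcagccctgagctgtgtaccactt
Brca2: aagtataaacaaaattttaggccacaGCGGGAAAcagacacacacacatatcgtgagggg
Bard1: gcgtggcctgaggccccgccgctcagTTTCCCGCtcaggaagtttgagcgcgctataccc
Fancg: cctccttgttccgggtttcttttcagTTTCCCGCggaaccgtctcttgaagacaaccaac
Msh6: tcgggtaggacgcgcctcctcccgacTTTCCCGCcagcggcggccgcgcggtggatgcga
Rad51c, first promoter: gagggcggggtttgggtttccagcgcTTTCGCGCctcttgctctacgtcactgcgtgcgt
Rad51c, second promoter: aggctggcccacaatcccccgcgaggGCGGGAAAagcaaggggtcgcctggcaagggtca
Xrcc6: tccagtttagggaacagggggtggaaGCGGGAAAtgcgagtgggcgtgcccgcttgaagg

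The promoters lie at chr5:110839733-110840032 on the plus strand for Chek2, chr13:92354954-92355253 on the minus strand for Msh3 and chr5:150522371-150522670 on the plus strand for Brca2. Those of Bard1 and Fancg are at chr1:71102923-71103222 and chr4:43010252-43010551, both on the minus strand. Msh6 (chr17:87974800-87975099) and Xrcc6 (chr15:82016119-82016418) are on the plus strand, and the promoters of Rad51c (chr11:87404457-87404756 and chr11:87404905-87405204) are on the minus strand. The words began 209 bases before the start in Bard1, 168 in Brca2, 152 in Chek2, 202 and 198 in Msh3, 52 in Fancg, 46 in Xrcc6 and 5 in the second promoter of Rad51c, and 15 and 11 bases after it in Msh6 and the first promoter of Rad51c. Only Chek2 and Msh3 of these 8 genes were called higher, at 0.33 and 0.36. Among promoters of the genes called higher, 2 of 16 (12.5%) held an E2F word, and among those of the other members 7 of 25 (28%) did.

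The other words searched were CCAAT, bound by the NF-Y factor, and TTTGAA, the core of the cell cycle homology region. CCAAT occurred in 23 of the 41 promoters (56.1%, against 37.4% of all promoters), in 10 of 16 (62.5%) of the genes called higher and in 13 of 25 (52%) of the others. TTTGAA occurred in 2 of 41 (4.88%, against 17.9%), and in none of the 16. Base composition was not matched for these 2 words either, and both overlapping promoters of Rad54l count among those with CCAAT. None of the genes that were called under every processing alternative and had an entry held an exact copy of the E2F words searched. Variants of those words were not searched. The promoters of these genes are shown whole, with CCAAT on either strand in capitals.
Brca1: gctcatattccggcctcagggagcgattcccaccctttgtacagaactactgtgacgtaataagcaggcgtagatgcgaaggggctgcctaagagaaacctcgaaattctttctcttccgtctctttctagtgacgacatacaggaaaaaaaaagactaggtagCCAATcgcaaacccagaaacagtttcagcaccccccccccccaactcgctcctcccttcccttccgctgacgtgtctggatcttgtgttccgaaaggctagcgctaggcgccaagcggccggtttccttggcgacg
Fancb: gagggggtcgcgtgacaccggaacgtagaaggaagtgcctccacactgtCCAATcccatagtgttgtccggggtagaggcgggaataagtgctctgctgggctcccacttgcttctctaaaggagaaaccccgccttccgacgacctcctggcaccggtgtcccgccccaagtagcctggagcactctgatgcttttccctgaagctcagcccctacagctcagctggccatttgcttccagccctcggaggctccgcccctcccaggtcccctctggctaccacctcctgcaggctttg
Fancl: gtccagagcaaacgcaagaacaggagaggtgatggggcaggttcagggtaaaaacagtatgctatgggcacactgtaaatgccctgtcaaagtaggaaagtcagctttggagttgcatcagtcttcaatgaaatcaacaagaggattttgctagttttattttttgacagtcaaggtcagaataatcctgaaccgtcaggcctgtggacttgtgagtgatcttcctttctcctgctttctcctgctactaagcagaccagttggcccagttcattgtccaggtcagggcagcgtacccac
Pms2: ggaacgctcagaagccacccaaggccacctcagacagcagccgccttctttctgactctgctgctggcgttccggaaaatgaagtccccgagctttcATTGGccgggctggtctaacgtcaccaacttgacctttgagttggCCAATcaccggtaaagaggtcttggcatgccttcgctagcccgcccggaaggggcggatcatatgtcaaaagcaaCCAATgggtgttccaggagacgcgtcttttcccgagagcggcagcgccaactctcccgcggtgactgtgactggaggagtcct
Xrcc4: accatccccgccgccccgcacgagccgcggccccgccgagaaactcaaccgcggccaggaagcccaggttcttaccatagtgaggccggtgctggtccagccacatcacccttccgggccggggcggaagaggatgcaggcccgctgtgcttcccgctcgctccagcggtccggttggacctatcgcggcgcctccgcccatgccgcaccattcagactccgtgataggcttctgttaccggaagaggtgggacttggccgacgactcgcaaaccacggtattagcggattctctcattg

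They lie at chr11:101551906-101552205 (Brca1) and chr13:90089559-90089858 (Xrcc4) on the minus strand, and at chrX:164980342-164980641 (Fancb), chr11:26386834-26387133 (Fancl) and chr5:143909751-143910050 (Pms2) on the plus strand. Brca1 and Fancb hold 1 CCAAT each and Pms2 holds 3, while Fancl and Xrcc4 hold none. The GC content of these windows ran from 47% in Fancl to 65.7% in Xrcc4, so the promoter of Xrcc4 is rich in GC although its exons are not (41.3%). A word is a description of the sequence and not a site of binding.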

How the data were processed

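RNA of 7 tumors was sequenced by the authors on TruSeq v2 libraries per the labels (the methods say stranded total RNA). They mapped reads to mouse NCBIM37 with their StrongArm pipeline and deposited HTSeq counts per GENCODE gene. CASAVA 1.7, STAR and BWA are listed in the submitters' processing notes, and the strand setting of the counting is not given in the sources used here. The 47 genes and all other lists were chosen with earlier results of these data known. Counts were filtered by filterByExpr, TMM-scaled and tested by edgeR 4.0.16 (quasi-likelihood, group only, all 7 tumors, Benjamini-Hochberg over 17388 genes), after testing on simulated data. The human WDR11 row was left out of library sizes and tests. Full values are given for the 2 genes of each role with the smallest p (3 in roles of 6 or more genes); others were chosen after their values were seen. Exon length, GC content and overlaps came from GENCODE vM1, which held 97.2% of the mouse genes. GC and length trends were fitted per tumor by loess (span 0.3) and added to the offset. Alternatives were limma 3.58.1 (voom), DESeq2 1.42.0, other scalings and filters, the trends, leaving out each tumor, an adjusted p under 0.01 and, chosen after seeing the data, WDR11OE replicates 1 and 2 summed, whose titles share a number and whose counts are most alike.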

Additional observations from a re-analysis of the deposited data

Results flagged for a closer look

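Among the 4 tumors labelled WDR11OE, 4 of 47 genes held a tumor far from the other 3 by Dixon's ratio (the gap to the nearest tumor over the range of the 4, above its 95% critical value); chance flags about 1 in 20 groups. Lig4 in replicate 4 (11.6 CPM, against 15.2 to 15.8 in the others) gave a ratio of 0.873, and Chek1 in the same tumor, below the 40.1 to 40.9 CPM of the others, gave 0.865. Fancb in replicate 3 (21.0 against 16.7 to 17.3 CPM) gave 0.836, on the far side from the controls. Ercc2 in replicate 2 (34.8 against 31.8 to 32.1 CPM) gave 0.906.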

How the results depend on the processing

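Of 799 results for single genes under 17 alternatives, 649 kept direction and side of the threshold, 109 lost their call, 17 gained one and 24 changed sign; none of the changes of sign was in a gene called at first, and 37 of 47 genes kept 1 sign throughout. The cause of each change below was not tested. With the GC trend removed, the median log2 fold change was 0.18 for all 47 genes (9 called higher), 0.02 for damage signalling, 0.14 for MRN, 0.18 for homologous recombination, 0.00 for RecQ, 0.27 for Fanconi, 0.23 for mismatch repair and 0.20 for nucleotide excision repair; 16 other repair genes, 4 S phase genes and 1 G2 and mitosis gene were called higher, and 1 of the last lower. Signs turned for Chek1 (-0.07), Xrcc3 (0.18), Blm (-0.09), Ercc2 (0.21), Lig4 (-0.04) and Xrcc1 (0.18). With the GC and length trends removed, medians were 0.03 for damage signalling, 0.21 for MRN, 0.08 for RecQ, 0.21 for nucleotide excision repair and 0.11 for single-strand break repair, whose sign turned; 1 member was called lower, and 4 S phase and 1 G2 and mitosis gene higher. Signs turned for Chek1 (-0.04), Xrcc3 (0.16), Blm (-0.04), Fanca (0.26), Ercc2 (0.34), Lig4 (-0.04), Xrcc1 (0.11) and Lig3 (0.12). With the length trend alone, the medians of Fanconi and mismatch repair were 0.47 and 0.48, 5 S phase genes were called higher, 1 member (H2afx) passed the 2-fold limit, and Brca2 (0.07), Fanca (0.03), Ercc1 (-0.02) and Lig3 (0.03) turned.

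No filter left 13 members and 4 S phase genes called higher, and a filter of 1 CPM in 3 tumors left 5 S phase genes. Upper-quartile and library size scaling each left 1 member called lower, and the former put 1 (Fancb) past the 2-fold limit. At an adjusted p under 0.01, 10 members were higher and 0 lower, with 2 other repair genes lower, 3 S phase genes higher and 1 lower, and 5 G2 and mitosis genes higher and 1 lower. With WDR11OE replicates 1 and 2 summed (chosen after seeing the data), 10 members were higher and 1 lower, 19 other repair genes higher, 3 S phase genes higher and 1 lower, and 4 G2 and mitosis genes higher and 1 lower. Ercc1, at 0.02, turned under DESeq2 (-0.02), no filter (-0.03), the summed libraries (-0.06) and without control replicate 2 (-0.00), WDR11OE replicate 1 (-0.07) or 2 (-0.04).

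Leaving out 1 tumor at a time gave 9 to 21 members higher and 0 to 2 lower, 0 to 1 past the 2-fold limit, 19 to 32 other repair genes higher and 4 to 6 lower, 3 to 10 S phase genes higher and 1 to 3 lower, and 3 to 9 G2 and mitosis genes higher and 1 to 3 lower. Medians ran from 0.19 to 0.32 for all 47 genes, 0.15 to 0.37 for damage signalling, 0.24 to 0.37 for MRN, 0.20 to 0.32 for homologous recombination, 0.20 to 0.31 for RecQ, 0.30 to 0.46 for Fanconi, 0.28 to 0.38 for mismatch repair, -0.07 to 0.09 for nucleotide excision repair, 0.21 to 0.36 for end joining and -0.28 to -0.06 for single-strand break repair. No paired analysis was possible because the labels carry no replicate numbers; those used here follow accession order and pair no tumors between groups. How far depth limits the scarcest genes, such as Rad51c and Xrcc4, was not tested.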
